A study of Homo sapiens with 4 samples.

Results

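The genes described here are 10 components of the RNA interference and microRNA machinery: DROSHA, DGCR8, XPO5, DICER1, TARBP2, AGO1, AGO2, AGO3, AGO4 and TNRC6A. They were chosen by name, from what they are known to do, with earlier results of these data known. In the count table they were found by matching Ensembl identifiers without their version to symbols. Each of the 10 was present among the 60721 genes of the table and passed the filter on low counts that kept 16137 genes for testing. RNA was sequenced from Hs578T cells, an established line from a human breast carcinoma, which had received GFP together with a short RNA at 1.6 µM and were collected after 48 h. In the SCR group the short RNA was a control with no intended target, and in the siTLN1 group it was directed at TLN1, which encodes the adhesion adaptor talin-1. Each group held 2 libraries, named a and b here after a number that recurs in a column of each group. They are biological replicates per the series' design text, from 1 cell line, and whether they were separate cultures is not stated, so p-values measure the spread between these libraries.

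MicroRNAs are cut from long primary transcripts in the nucleus by the Microprocessor, which is the RNase Drosha with its RNA-binding partner DGCR8. The hairpins are carried to the cytoplasm by exportin-5 (XPO5), where Dicer and its partner TRBP (TARBP2) cut them to duplexes, and 1 strand is loaded into an Argonaute protein. Argonautes bind messages that pair with the seed, the bases from position 2 to 8 of the small RNA, and TNRC6 proteins then recruit enzymes that remove the poly(A) tail and the cap. A synthetic siRNA enters this pathway at the loading step, and AGO2 is the Argonaute best known for cutting fully paired targets. Both groups of this experiment therefore received an RNA that is handled by the products of some of these genes, those that act at and after loading.

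The libraries held 31854322 to 46353297 counts, of which 99.9% lay in tested genes. TLN1, the check of the labels, had 868 and 874 CPM (counts scaled to library size by TMM) in SCR against 51.9 and 44.8 CPM in siTLN1. All 6 mesenchymal or basal B markers (VIM, CDH2, FN1, CD44, SPARC and ZEB1) were at 1 CPM or more in every library, with summed levels of 34548 to 37546 CPM in SCR and 36120 to 41705 CPM in siTLN1. FN1 made up most of these sums (23553 to 32369 CPM), and CDH2 had 569 and 535 CPM in SCR against 303 and 293 CPM in siTLN1, SPARC 5119 and 4917 against 3705 and 3500 CPM, and CD44 1627 and 1521 against 1341 and 1291 CPM. Whether these differences have a part in the results below was not tested. Of 8 luminal or epithelial markers 3 reached 1 CPM in every library, with sums of 193 to 225 CPM in SCR and 201 to 202 CPM in siTLN1. Those were KRT8, KRT18 (104 to 131 CPM over the libraries) and ERBB2, while EPCAM, CDH1, KRT19, ESR1 and PGR stayed under 1 CPM, so this list went both ways. All 4 leukocyte markers and 2 of 3 endothelial markers were under 1 CPM in every library.

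Among the 10 genes, AGO1 was the one that passed the test, and it was lower in siTLN1. In RNA from bulk cultures, fewer cells that express a gene and less of its RNA per cell cannot be told apart. The other 9 genes did not pass. AGO2, TNRC6A and XPO5 had higher means in siTLN1 with no overlap of libraries between the groups, at adjusted p from 0.0708 to 0.0838. DROSHA, DGCR8, AGO3 and AGO4 had log2 fold changes between −0.056 and 0.025. Groups were compared by the quasi-likelihood test of edgeR, p-values were adjusted by Benjamini-Hochberg over all 16137 genes, and genes with an adjusted p under 0.05 are called changed. The share of all tested genes that changed was 6.07%, with 3.77% lower and 2.3% higher, so 1 call among 10 genes does not set these genes apart from the rest by its count. At an unadjusted p under 0.05 there were 4 of the 10 genes (AGO1, AGO2, TNRC6A and XPO5), against 19.8% of all tested genes. In 5 of the 10 genes the libraries of the groups did not overlap, against 48.4% of all tested genes. The median log2 fold change of the 10 genes was 0.094, and that of all tested genes was 0.0033.

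**Figure D1:**
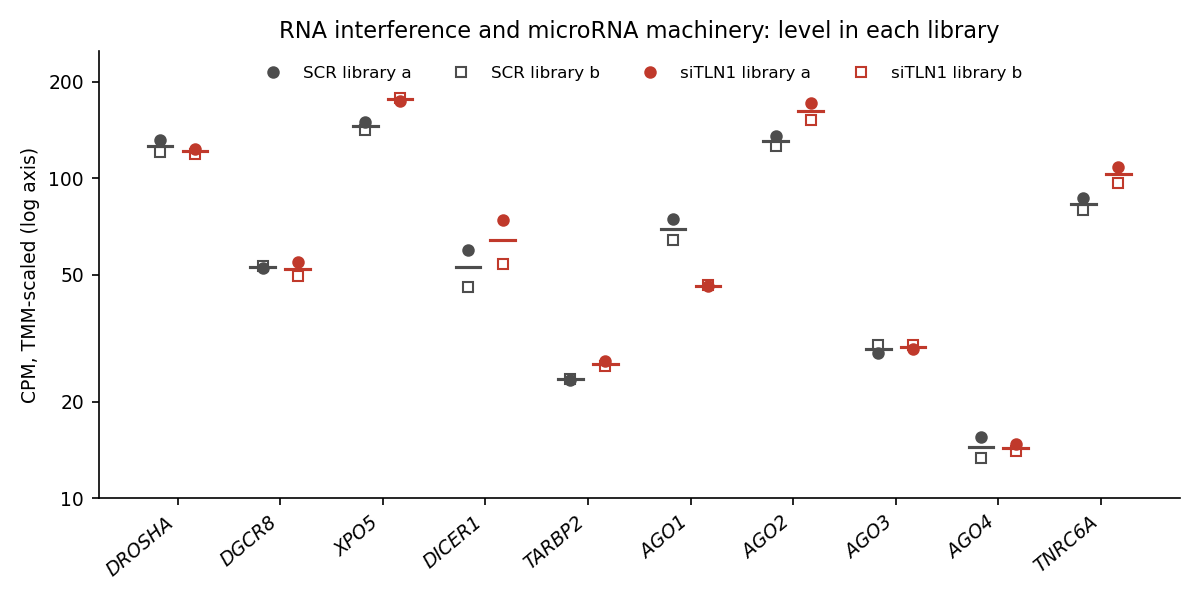
Level of the 10 genes in each library, in TMM-scaled CPM on a log axis. Filled circles are library a, open squares library b, and bars the mean of 2 libraries. The AGO1 libraries of siTLN1 lie together near 46 CPM, under both SCR libraries, whereas both groups of DICER1 are spread apart.

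Levels of different genes were compared as CPM per kilobase of annotated exon, which overstates the length of genes with many alternative exons. On this scale the order in SCR, by group mean, was XPO5 (17.1), DROSHA (16.2), AGO2 (8.25), DGCR8 (7.23), TNRC6A (6.40), TARBP2 (5.75), AGO1 (4.99), DICER1 (4.29), AGO4 (1.95) and AGO3 (1.38). The libraries of XPO5 and DROSHA overlapped in SCR, as did those of AGO1 and DICER1, and the other neighbours in this order did not. In siTLN1 the order at the top and the bottom was as in SCR, with XPO5 at 20.8, DROSHA at 15.6, AGO4 at 1.94 and AGO3 at 1.40 CPM per kilobase. By group mean the middle changed places: TNRC6A (7.92) stood above DGCR8 (7.12), and DICER1 (5.21) above AGO1 (3.32). In siTLN1 the libraries of TNRC6A and DGCR8 overlapped, and those of DICER1 and AGO1 did not.

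DROSHA and DGCR8 form the nuclear Microprocessor, and neither passed the test. DROSHA (ENSG00000113360.16; GRCh38, chromosome 5, 31400497 to 31532196, minus strand) had 131 and 121 CPM in the SCR libraries and 124 and 119 CPM in the siTLN1 libraries. Its groups overlapped, and its log2 fold change was −0.056 with a 95% interval from −0.25 to 0.14 (adjusted p 0.811 by edgeR). DGCR8 (ENSG00000128191.16; chromosome 22, 20080232 to 20111877, plus strand) had 52.5 and 53.2 CPM in SCR and 54.6 and 49.6 CPM in siTLN1. The siTLN1 libraries of DGCR8 lay on either side of the SCR libraries, with a log2 fold change of −0.022 (interval −0.23 to 0.18, adjusted p 0.938). The intervals exclude a fall of the size seen for AGO1 in both genes. Per kilobase of exon the ratio of DROSHA to DGCR8 was 2.35 and 2.14 in SCR and 2.13 and 2.25 in siTLN1, so the ratios of the groups overlapped.

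DGCR8 is itself a known target of the Microprocessor, which cuts hairpins in its message. The mature microRNAs that RefSeq (GRCh38.p14) places inside its exons are shown because their hairpins lie in the transcript counted here. They are written 5′ to 3′ with the seed in capitals.
hsa-miR-3618: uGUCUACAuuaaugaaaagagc
hsa-miR-1306-5p: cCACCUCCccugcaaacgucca
hsa-miR-1306-3p: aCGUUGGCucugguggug
The first lies at chr22:20085797-20085818 and the others at chr22:20086072-20086093 and chr22:20086112-20086129, on the plus strand. These sequences have different seeds. The microRNA genes share 2.37% of the exon bases of DGCR8 on the same strand, and exons of genes on the other strand cover 7.22%. The counting used no strand option, so the reads of such overlaps cannot be assigned by strand.

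XPO5 encodes exportin-5, the export receptor for microRNA hairpins (ENSG00000124571.18; chromosome 6, 43522334 to 43576038, minus strand). It had 150 and 141 CPM in SCR and 174 and 179 CPM in siTLN1. Both siTLN1 libraries were above both SCR libraries, and the group means were 145 ± 5.90 and 176 ± 3.26 CPM (SD, n = 2). Its log2 fold change was 0.28 (standard error 0.091, interval 0.085 to 0.47), and edgeR's adjusted p was 0.0838. With each library's trend with gene length removed, the adjusted p was 0.0474. Of its exon bases, 4.10% are shared with the opposite-strand gene POLR1C.

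DICER1 and TARBP2 act in the next step, the cut that gives the duplex. DICER1 (ENSG00000100697.14; chromosome 14, 95086228 to 95158010, minus strand) had 59.8 and 45.7 CPM in SCR and 74.2 and 53.9 CPM in siTLN1. Library a was the higher one in each group, the siTLN1 library was the higher one of each letter, and the groups overlapped. The spread between replicates of DICER1 was the widest of the 10 genes in each group, with group means of 52.7 ± 9.94 and 64.1 ± 14.4 CPM (SD, n = 2). Its log2 fold change of 0.28 had an interval from −0.071 to 0.63 (adjusted p 0.373 by edgeR). A fit without 1 library holds unequal numbers of a and b libraries, and there the value was 0.49 without SCR library a (adjusted p 0.00561) and 0.50 without siTLN1 library b (0.0247), but 0.099 with SCR library b left out (0.791) and 0.033 with siTLN1 library a left out (0.965). In these fits the lone library of a group is assumed to vary like the others. TARBP2 (ENSG00000139546.11; chromosome 12, 53500921 to 53506431, plus strand) had 23.5 and 23.6 CPM in SCR and 26.8 and 26.0 CPM in siTLN1. Its libraries did not overlap between groups, but its log2 fold change of 0.16 did not pass (interval −0.051 to 0.38, adjusted p 0.408). Per kilobase the ratio of DICER1 to TARBP2 was 0.847 and 0.645 in SCR and 0.923 and 0.691 in siTLN1, with overlap of the groups.

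AGO1 had the largest change of the 10 genes and ranked 178 of 16137 genes by p value. AGO1 (ENSG00000092847.12; chromosome 1, 35869808 to 35930532, plus strand) encodes an Argonaute that takes part in microRNA silencing and is a weak slicer at most. It had 2367 and 2237 raw counts in SCR and 1670 and 2172 in siTLN1, which after scaling were 74.5 and 64.2 CPM against 45.9 and 46.2 CPM. The siTLN1 libraries lay close together, under both SCR libraries. The mean fell from 69.3 ± 7.23 to 46.0 ± 0.243 CPM (SD, n = 2), which left 66.4% of the SCR mean. On the log2 scale AGO1 fell by 0.59 (standard error 0.10, interval −0.80 to −0.38), and edgeR gave an adjusted p of 0.00184. It passed in each fit that left out 1 library, with log2 fold changes of −0.69 (SCR library b left out) to −0.48 (SCR library a left out) and adjusted p up to 0.0286.

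AGO2, the Argonaute with strong slicer activity, had the highest level of the family per kilobase. AGO2 (ENSG00000123908.12; chromosome 8, 140520156 to 140635633, minus strand) had 136 and 126 CPM in SCR and 172 and 152 CPM in siTLN1. Both siTLN1 libraries were above both SCR libraries, with means of 131 ± 6.70 and 162 ± 13.8 CPM (SD, n = 2). The adjusted p of AGO2 by edgeR was 0.0708, with 0.0299 after removal of the gene-length trend and 0.115 without a filter on low counts. Its log2 fold change was 0.31 (standard error 0.097, interval 0.10 to 0.51). The value was 0.22 without siTLN1 library a and 0.40 without siTLN1 library b, and neither of these fits passed (adjusted p 0.522 and 0.0592).

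AGO3 and AGO4 encode the other two Argonautes and were the lowest of the 10 genes per kilobase. AGO3 (ENSG00000126070.20; chromosome 1, 35930718 to 36072500, plus strand) had 28.3 and 30.0 CPM in SCR and 29.3 and 30.1 CPM in siTLN1. Its log2 fold change was 0.025 (interval −0.19 to 0.24, adjusted p 0.930), and the groups overlapped. AGO4 (ENSG00000134698.11; chromosome 1, 35808016 to 35857890, plus strand) had 15.6 and 13.4 CPM in SCR and 14.8 and 14 CPM in siTLN1. Both siTLN1 libraries of AGO4 lay between the SCR libraries, with a log2 fold change of −0.0082 (interval −0.26 to 0.24, adjusted p 0.984). AGO4, AGO1 and AGO3 lie in this order on the same strand of chromosome 1, with 11917 bases between AGO4 and AGO1 and 185 bases between AGO1 and AGO3. The interval of AGO1 did not overlap those of its neighbours on either side. The difference between these genes was not itself tested.

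The Argonaute messages are related, and reads shared by family members would be left out or split. The longest run shared by the transcripts compared (1 per gene, GENCODE 29) was 43 bases, between AGO3 and AGO4, and for AGO1 it was 32 bases, with AGO3. Exons of genes on the other strand cover 2.85% of the exon bases of AGO1 and 0.407% of those of AGO3.

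**Figure D2:**
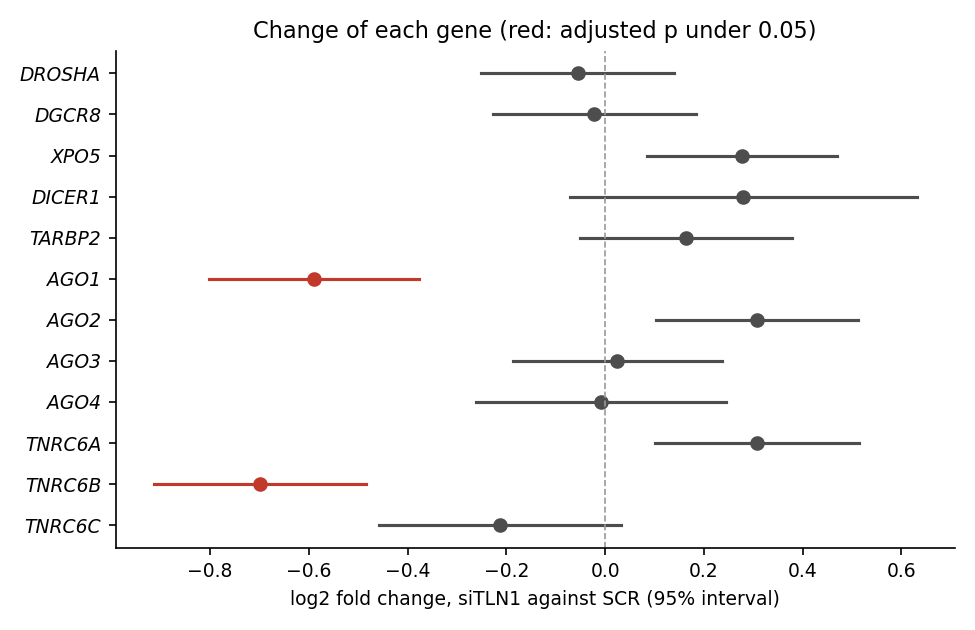
Log2 fold change of siTLN1 against SCR for the 10 genes and for TNRC6B and TNRC6C, with 95% intervals from the edgeR fit. AGO1 and TNRC6B are the genes of this set past the threshold, in red at −0.59 and −0.70.

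TNRC6A encodes a GW182 scaffold that binds Argonaute and brings in deadenylases. TNRC6A (ENSG00000090905.19; chromosome 16, 24610209 to 24827632, plus strand) had 86.4 and 79.6 CPM in SCR and 109 and 96.7 CPM in siTLN1. Both siTLN1 libraries were the higher ones, with means of 83.0 ± 4.81 and 103 ± 8.49 CPM (SD, n = 2). Its log2 fold change was 0.31 (standard error 0.098, interval 0.10 to 0.51), which did not pass in the edgeR fit (adjusted p 0.0746). The adjusted p was 0.0314 with the gene-length trend removed and 0.124 without a filter on low counts. With 1 library left out, the log2 fold change of TNRC6A ran from 0.22 to 0.39. The paralog TNRC6B, from the list of silencing effectors, fell. TNRC6B (ENSG00000100354.21; chromosome 22, 40044817 to 40335808, plus strand) had 65.3 and 60.3 CPM in SCR and 41.2 and 36.2 CPM in siTLN1, which is −0.70 in log2 fold change (standard error 0.10, adjusted p 0.000474 by edgeR). TNRC6C had 18.3 and 16.8 CPM in SCR and 16.1 and 14.3 CPM in siTLN1, and its log2 fold change of −0.21 did not pass (adjusted p 0.333). Exons of genes on the other strand cover 12.9% of its exon bases.

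The share of each gene in its family's message pool is given next as a description. The 4 Argonaute genes together stood at 17.4 and 15.8 CPM per kilobase in SCR and at 17.5 and 16.2 in siTLN1, so the sums overlapped. The share of AGO1 in that sum was 30.9% and 29.3% in SCR and 18.9% and 20.5% in siTLN1. The share of AGO2 was 49.3% and 50.4% in SCR and 61.9% and 59.1% in siTLN1. Neither share overlapped between groups, whereas those of AGO3 (7.72% to 8.99% over the libraries) and AGO4 (11.3% to 12.1%) did. Per kilobase AGO2 was 1.60 and 1.72 times AGO1 in SCR and 3.28 and 2.89 times AGO1 in siTLN1.

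In the TNRC6 family the shares of TNRC6A, TNRC6B and TNRC6C did not overlap between groups either. Its sum was 11.6 and 10.7 CPM per kilobase in SCR and 11.9 and 10.6 in siTLN1, again with overlap. TNRC6A made up 57.6% and 57.5% of it in SCR and 70.5% and 70.7% in siTLN1. TNRC6B made up 28.2% and 28.3% in SCR and 17.3% and 17.2% in siTLN1. The share of TNRC6C was 14.2% in each SCR library and 12.2% in each siTLN1 library. The shares of AGO1, AGO2, TNRC6A, TNRC6B and TNRC6C differed between groups by more than the spread between replicates, and no test of the shares was run. Shares of 1 sum are tied to each other, so they move when AGO1 or TNRC6B falls, and AGO2, TNRC6A and TNRC6C did not pass on their own. The size of each share rests on the annotated exon lengths.

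**Figure D3:**
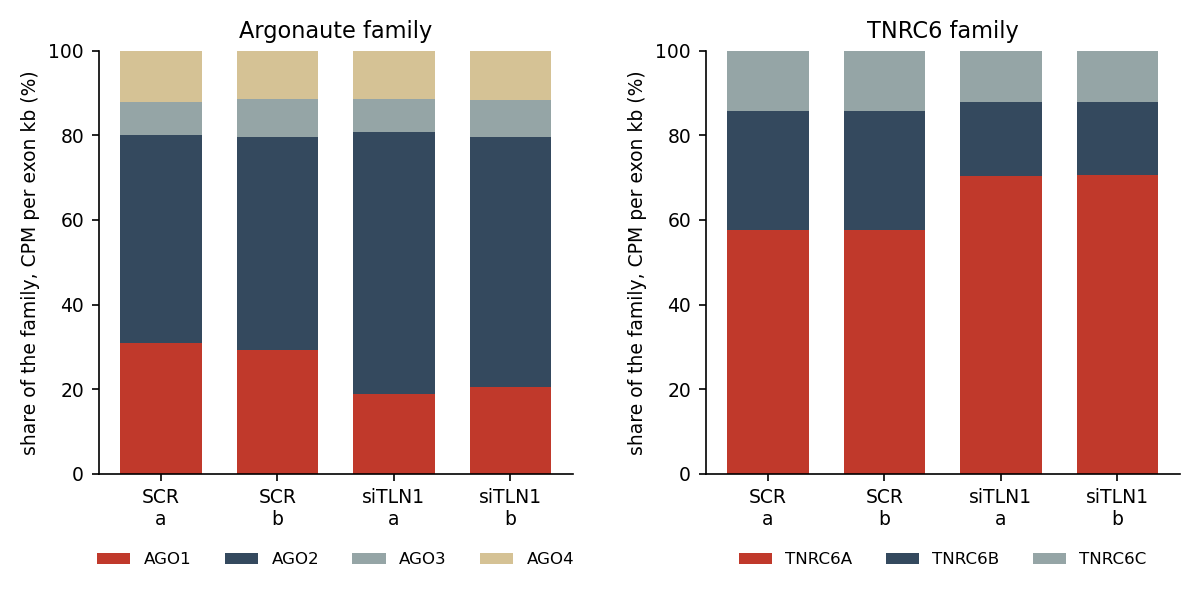
Makeup of the Argonaute and TNRC6 families in each library, as the percent of the family's summed CPM per kilobase of exon. AGO1 takes 30.9% and 29.3% in SCR against 18.9% and 20.5% in siTLN1, and TNRC6B 28.2% and 28.3% against 17.3% and 17.2%.

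A 7-base word, GACAACA, went with lower values in these data: apart from TLN1, 11956 tested protein-coding genes had a 3′ UTR of 100 bases or longer, and the 940 genes (7.86%) with the word there had a median log2 fold change of −0.098, and the 11016 without it 0.014. The word had been picked from these same libraries, so this is a description. Of the genes with the word 16.8% fell, and of those without it 3.49% fell. In the transcript with the longest coding sequence, 4 of the 10 genes hold 1 copy each in the 3′ UTR: DICER1, AGO1, AGO3 and AGO4. The sites of AGO1, AGO4 and DICER1 are printed with flanking bases because these genes share the word and differ in their change. They are on the strand of the transcript, from GENCODE 29 on GRCh38, with the word in capitals.
AGO1: ttttataaaGACAACAgtggcttct
AGO4: ttgtgaatgGACAACAgttacatag
DICER1: ccctgccttGACAACAtgaaacttg
The printed windows lie at chr1:35924266-35924290 for AGO1, chr1:35855072-35855096 for AGO4 and chr14:95087192-95087216 for DICER1. Of these 4 genes AGO1 fell and the other 3 did not pass, with log2 fold changes of 0.025 for AGO3, −0.0082 for AGO4 and 0.28 for DICER1. The 3′ UTRs searched are long, at 10921 bases for AGO1, 16755 for AGO3, 4285 for AGO4 and 4270 for DICER1, and a long region holds any word more often. In AGO1, 1 of 2 coding transcripts holds the word, and in DICER1, 3 of 9. The chosen transcripts of DROSHA, DGCR8, XPO5, TARBP2, AGO2 and TNRC6A lack it, and so do their other coding transcripts. None of 2370 mature microRNAs in the RefSeq table has a seed that pairs with the word over all 7 bases. Among the 10 genes and the list genes taken up below, 7 fell, and 6 of these hold the word in the 3′ UTR. They are AGO1, P4HA1, CNOT11 (2 copies), TNRC6B, FMR1 and CTDSPL, while COPZ2 lacks it. Of the 4 that rose, 3 have a coding transcript, and 0 of these hold it there. Over the 11956 genes, 158 of the 543 that fell hold the word there, as do 19 of the 309 that rose. TNRC6C, which did not pass, holds it in the 3′ UTR of 2 of 7 coding transcripts. TLN1 holds 1 copy in its coding sequence. Apart from AGO1, the list genes were named because they passed the test. Whether the word has a part in the fall of AGO1 or of these genes was not tested.

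Cofactors and effectors of this machinery and transcripts that host microRNAs were taken as 5 lists of 144 genes, of which 137 were tested, and 10 of these (7.30%) changed, 4 higher and 6 lower, against 6.07% of all tested genes. The lists, too, were chosen with earlier results of these data known. By list the share of changed genes ran from 0% to 11.6%, and the medians ran from 0.0037 to 0.057, against 0.0033 for all tested genes. The changes lay among silencing effectors, microRNA host transcripts and a single gene of the loading list.

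Among 20 nuclear processing and export cofactors, none passed, with 5 at an unadjusted p under 0.05. The smallest p in this list was that of METTL3, which methylates RNA, with 32.6 ± 2.33 CPM in SCR and 40.2 ± 1.39 CPM in siTLN1 (SD, n = 2) and an adjusted p of 0.0907 by edgeR. Among 19 genes of dicing and loading 1 fell. P4HA1, a subunit of the prolyl hydroxylase that acts on collagen and also on AGO2, went from 126 and 129 CPM to 45.5 and 64.5 CPM, with a log2 fold change of −1.21 (adjusted p 0.000275). Among 19 tested genes of microRNA and Argonaute turnover none passed in edgeR, with 3 at an unadjusted p under 0.05. The smallest p there was that of XRN2, a nuclear exonuclease, at 181 ± 2.40 CPM in SCR and 219 ± 11.4 CPM in siTLN1 (SD, n = 2) with an adjusted p of 0.0920. METTL3 and XRN2 passed with the gene-length trend removed (adjusted p 0.0473 and 0.0434), but not without a filter on low counts (0.154 and 0.135).

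Of 43 silencing effectors 3 fell, 2 rose and 38 did not pass. CNOT11, a subunit of the CCR4-NOT deadenylase, went from 37.0 and 33.8 CPM in SCR to 17.5 and 16.4 CPM in siTLN1, with a log2 fold change of −1.06 (standard error 0.11, adjusted p 1.28e-05). TNRC6B fell as given above, and FMR1, which encodes the RNA-binding protein FMRP, changed by −0.36 on the log2 scale (adjusted p 0.0452). The genes that rose were DCP2, the decapping enzyme (0.45, adjusted p 0.0256), and its cofactor DCP1A (0.40, adjusted p 0.0377), given as log2 fold changes. DCP2 and DCP1A lost their calls with SCR library b left out (adjusted p 0.139 and 0.230) and with siTLN1 library a left out (0.291 and 0.346). FMR1 lost its call without SCR library a (0.200), siTLN1 library a (0.249) or siTLN1 library b (0.186) and with DESeq2 (0.0606). DCP1A and FMR1 also lost theirs without a filter on low counts (0.0691 and 0.109).

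**Figure D4:**
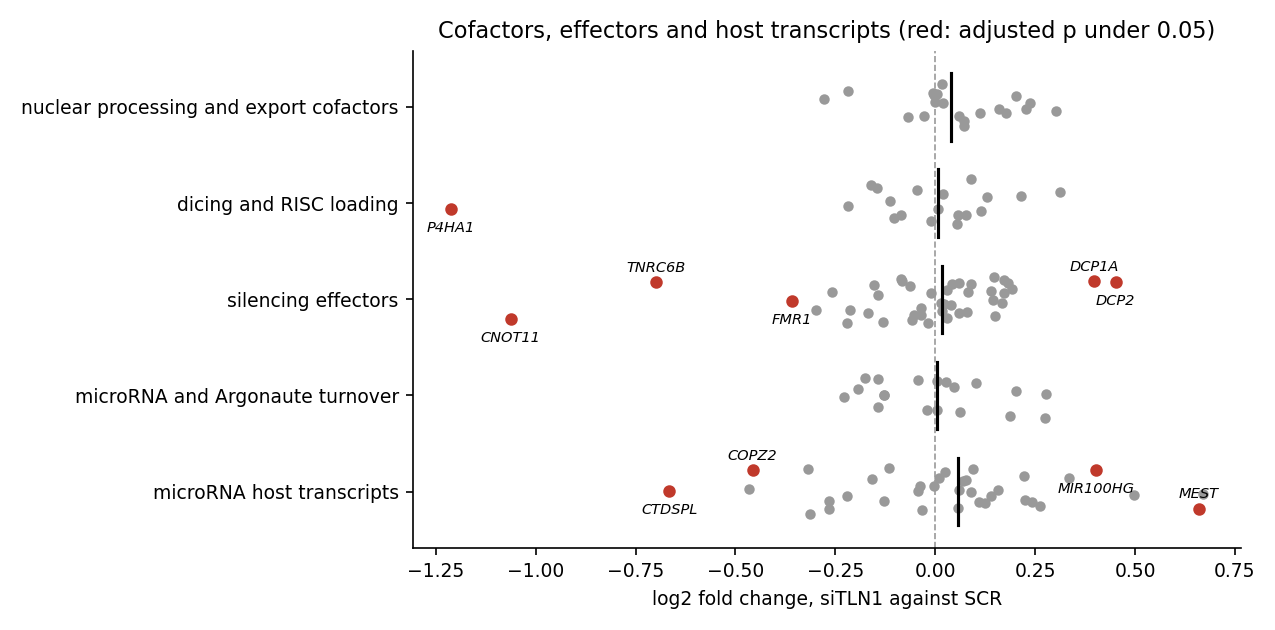
Log2 fold changes of the tested genes in the 5 lists, 1 point per gene, with vertical placement within a list carrying no meaning. Black bars are list medians, from 0.0037 to 0.057, and the 10 changed genes are named in red.

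Primary transcripts that carry microRNAs were represented by 40 host transcripts, of which 36 were tested, 2 rose, 2 fell and 32 did not pass. CTDSPL, whose intron holds miR-26a-1, went from 35.8 and 33.5 CPM in SCR to 20.5 and 23.1 CPM in siTLN1, with a log2 fold change of −0.67 (adjusted p 0.00108). COPZ2, host of miR-152, had a log2 fold change of −0.46 (adjusted p 0.0307). MIR100HG, a long noncoding RNA that carries let-7a-2, miR-100 and miR-125b-1, went from 67.8 and 71.5 CPM to 88.5 and 95.5 CPM, with a log2 fold change of 0.40 (adjusted p 0.0171). MEST, host of miR-335, had a log2 fold change of 0.66 (adjusted p 0.0186), with 27.6% of its exon bases shared with opposite-strand genes. The call of COPZ2 was lost without SCR library b (adjusted p 0.100), without siTLN1 library a (0.370) and without a filter on low counts (0.0796). That of MIR100HG was lost without SCR library a (0.0585), siTLN1 library a (0.0698) or siTLN1 library b (0.124). Host levels are exon counts of polyadenylated RNA, and mature microRNAs were not measured.

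The main mature microRNA of each changed host is printed with its seed in capitals, from RefSeq (GRCh38.p14), because several have seed matches in the 10 genes.
hsa-miR-152-3p: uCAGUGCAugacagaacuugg
hsa-let-7a-5p: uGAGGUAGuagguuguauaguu
hsa-miR-125b-5p: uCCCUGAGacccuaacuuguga
hsa-miR-100-5p: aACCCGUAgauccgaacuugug
hsa-miR-26a-5p: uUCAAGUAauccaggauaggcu
hsa-miR-335-5p: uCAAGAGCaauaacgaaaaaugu
Each lies in an intron of its host: miR-152-3p at chr17:48037174-48037194, let-7a-5p at chr11:122146568-122146589, miR-125b-5p at chr11:122099809-122099830 and miR-100-5p at chr11:122152275-122152296, all on the minus strand, and miR-26a-5p at chr3:37969413-37969434 and miR-335-5p at chr7:130496126-130496148, on the plus strand. No 2 of these share a seed, but hosts that did not pass carry some of the same seeds. CTDSP2 also holds miR-26a-5p (SCR mean 117 CPM, siTLN1 mean 130 CPM). CTDSP1 holds miR-26b-5p, with the seed of miR-26a-5p (means 64.4 and 53.6 CPM). COPZ1 holds miR-148b-3p, with the seed of miR-152-3p (means 113 and 111 CPM). HUWE1 holds let-7f-5p, with the seed of let-7a-5p (means 356 and 374 CPM). MIRLET7BHG (means 6.91 and 6.73 CPM) and MIRLET7A1HG (0.436 and 0.516 CPM) hold let-7a-5p itself. These values are not scaled to exon length, so they do not rank the hosts against each other. The seed match of miR-152-3p, TGCACTG on the transcript strand, was in the 3′ UTR of 7 of the 10 genes (XPO5, DICER1, the 4 Argonautes and TNRC6A), with 5 copies in AGO1, and in 14.6% of 11957 3′ UTRs of at least 100 bases. That of let-7a-5p, CTACCTC, was in 4 (TARBP2, AGO1, AGO2 and AGO3), against 10.0% of 3′ UTRs. That of miR-125b-5p, CTCAGGG, was in DICER1, AGO1 and AGO2, against 14.9%. The match of miR-26a-5p, TACTTGA, was in AGO3 and TNRC6A (12.6% of 3′ UTRs), that of miR-100-5p, TACGGGT, in AGO2 (1.14%), and that of miR-335-5p, GCTCTTG, in none of the 10 (12% of 3′ UTRs). AGO1, AGO2 and AGO3 have 3′ UTRs of 10921, 11888 and 16755 bases, so they hold more words of any kind. A match is a description of the sequence, and whether these microRNAs act on the 10 genes was not tested.

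The genes most like AGO1 across the 4 libraries, by Euclidean distance of log2 CPM centred on each gene's mean and leaving out genes under 5 CPM on average, were KCTD1 (distance 0.058), RMC1 (0.060) and PCTP (0.062). Their log2 fold changes were −0.62, −0.59 and −0.53. With 4 libraries this likeness rests on few points.

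**Figure D5:**
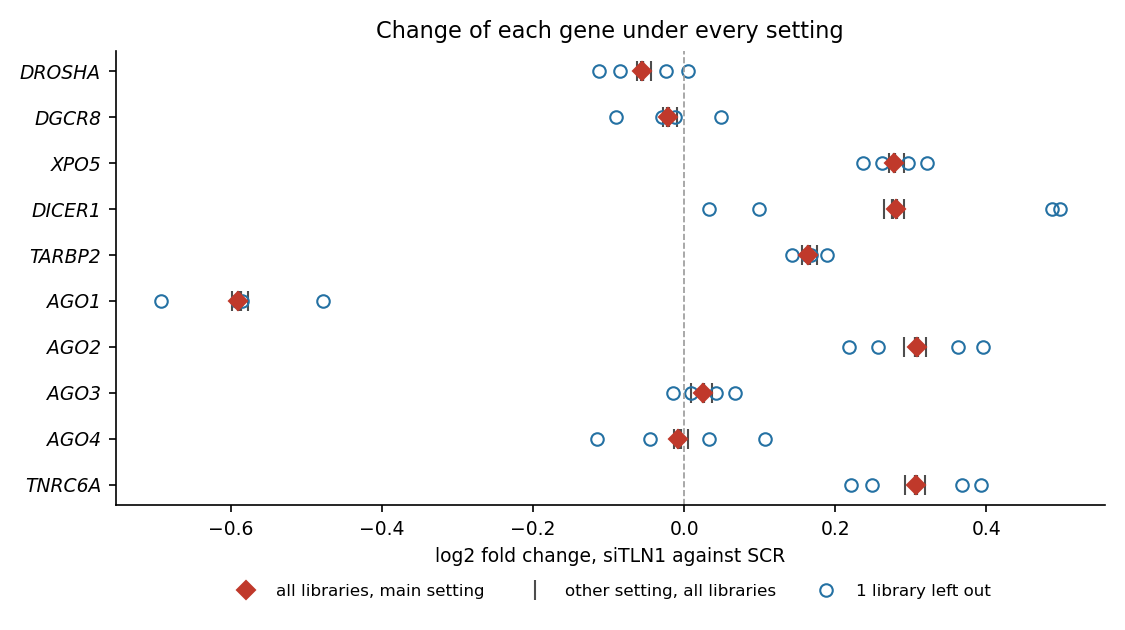
Log2 fold change of each of the 10 genes under every setting: all libraries with the main setting (diamonds), all libraries with another setting (ticks) and 1 library left out (open circles). AGO1 stays below 0 under each of these settings, between −0.69 and −0.48, while the DICER1 values without 1 library range from 0.033 to 0.50.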

How the data were processed

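The deposited counts of read pairs per gene came from featureCounts 2.0.0, run in paired mode without a strand setting on GENCODE 33 (GRCh38), per the file headers. STAR 2.7.9a is named in the submitters' processing notes. The same table gives exon lengths in bases, a unit other than counts in the deposited file. A second table of the authors holds log2 CPM of 16137 genes, and 100% of its values matched TMM-scaled log2 CPM from edgeR within 1e-06 when sorted within groups. Count columns name a group but no replicate of the labels. No column was left unmapped, and 0 rows named no gene. Replicates differed by more than counting noise (chi-square per gene 13.7 in SCR, 18.5 in siTLN1).

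Genes were kept by filterByExpr (minimum count 10, minimum total 15) and tested with edgeR 4.0.16 (R 4.3.3; TMM, robust glmQLFit, glmQLFTest), with a threshold of 0.05 on the adjusted p. Standard errors and 95% intervals follow from that fit. The member genes, the lists and the word GACAACA were chosen with earlier results of these data known. All 10 members are named, with TLN1 and, from each list, up to 8 changed genes by p or, where none changed, the gene with the smallest p. TNRC6C was added to complete its family. The 3 genes most like the member with the smallest p were named too. Alternatives were RLE scaling, total counts, no filter (at least 1 count), a mean of 10 counts, removal of the gene-length trend (loess, span 0.3), DESeq2 1.42.0, limma-trend (3.58.1) on the deposited log2 values, a replicate block, and each library left out. Counts were simulated for 16137 genes of this comparison, with 200 genes changed in each run. At 2-fold edgeR recovered 152 of these, and 126 of the 126 at 5 CPM or more, with 12 false calls over all genes. At 1.5-fold it recovered 88, and 84 of the 118 at 5 CPM or more, with 2 false calls. The simulated libraries were drawn independently, whereas replicate differences in the data correlated between the groups, so these rates need not hold for the data. Sequences came from GENCODE 29 and RefSeq. The site sequence of AGO3 is not reported here.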

Additional observations from a re-analysis of the deposited data

How the results depend on the processing

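AGO1 kept its direction and its call under each alternative run, with log2 fold changes from −0.60 to −0.58 with all libraries. The count of changed member genes, 1 in the edgeR fit, was 4 with the gene-length trend removed (AGO1, AGO2, TNRC6A and XPO5), and ran from 1 to 2 when 1 library was left out, DICER1 being the second. Over all tested genes the 980 changed genes became 1523 with the length trend removed and ran from 347 (without siTLN1 library a) to 1116 (without SCR library a) when 1 library was left out. The 10 changed list genes ran from 5 to 11 in those fits. Fewer libraries enter the fits that leave one out, and for the length trend the cause was not tested. Signs turned for values near 0: AGO4 was 0.0044 without a filter on low counts, and with 1 library left out DROSHA ran from −0.11 to 0.0045, DGCR8 from −0.091 to 0.049, AGO3 from −0.015 to 0.067 and AGO4 from −0.12 to 0.11. RLE scaling, total counts, a mean of 10 counts, DESeq2 and limma-trend without a block each called AGO1 alone among the 10 genes. DESeq2 gave no adjusted p for 3755 genes.

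The replicate numbers of the labels were tried as a replicate block, in limma-trend fits of the deposited log2 CPM table, whose columns carry them. The differences between replicates correlated between the groups at 0.19 across all tested genes and at 0.54 across genes at 5 CPM or more, where each of the 10 member genes lies, but no label says that a number marks a shared preparation, and 2 pairs cannot establish it. With the block 3645 genes changed, as did 5 of the 10 member genes (AGO1, AGO2, DICER1, TNRC6A and XPO5) and 37 list genes, and the adjusted p of DICER1 was 0.000749.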
